A study of Mus musculus with 48 samples.

Results

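Nuclear genes that encode subunits of the mitochondrial respiratory chain were followed across 8 mouse breast cancer lines and across neutrophils and macrophages sorted from tumours of 4 of those lines. They were taken by symbol alone, as every symbol with the prefix Ndufa, Ndufb, Ndufc, Ndufs, Ndufv, Uqcr, Cox4, Cox5, Cox6, Cox7, Cox8 or Atp5 together with Sdha, Sdhb, Sdhc and Sdhd. Assembly factors with the prefix Ndufaf and pseudogenes ending in -ps were left out. The rule found 85 genes among the 24054 symbols of the count table, and it used no measured value. By textbook assignment, 36 of them belong to complex I, 4 to complex II, 8 to complex III, 20 to complex IV and 15 to complex V, and 2 symbols caught by the prefix (Atp5s and Atp5sl) name no stable subunit.

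The respiratory chain passes electrons from NADH (complex I) and succinate (complex II) through complex III to complex IV, which reduces oxygen, and complex V uses the resulting proton gradient to make ATP. Most of its subunits are encoded in the nucleus, translated in the cytosol and imported, while a small catalytic core is encoded by mitochondrial DNA. Neutrophils are known as largely glycolytic cells with few mitochondria, whereas macrophages range between glycolytic and oxidative states.

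RNA was sequenced from 48 libraries, 3 for each of 16 groups. The lines T11, 2208L, 67NR and 4T1 carry the strain label BALB/C and the lines PyMT-M, PyMT-N, E0771 and AT3 the label C57BL/6. Passages were 15 to 20 for T11, 2208L and 4T1, 19 for 67NR, 7 for PyMT-M, 14 for PyMT-N and E0771, and 15 for AT3. All lines were untreated and grown with FBS, in DMEM/High Glucose except E0771, which was kept in RPMI 1640 with HEPES. Neutrophils (Ly6G+, Ly6C med-low) and macrophages (Ly6G-, Ly6C-, F4/80+) were gated from DAPI- CD45+ CD11b+ cells of untreated T11, 2208L, E0771 and AT3 tumours and sorted into TRIzol LS. RNA of the sorted cells came from a microprep kit and that of the lines from a miniprep kit. Sorted cells carry the strain label of their line, except that neutrophil 1 and macrophage 1 of E0771 are labelled BALB/C. PyMT-N was matched by elimination to the 3 columns named PyMTE, the only line name without columns of its own. The labels do not say whether the 3 libraries of a group came from separate cultures or animals, so p-values measure the spread between these libraries, which may be technical.

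Libraries of the lines held 2058000 to 6263000 counts in all, those of the macrophages 1862000 to 6240000 and those of the neutrophils 669900 to 3341000. Between 55.0% and 76.2% of the macrophage counts and 26.8% to 70.3% of the neutrophil counts fell on the ribosomal RNA precursor gene Rn45s, against 3.9% to 14.9% in the lines. The respiratory chain genes together took 14395 to 44928 counts per line library, 3135 to 19068 per macrophage library and 832 to 4301 per neutrophil library, so single genes are least precise in neutrophils. Within each tumour, the 10 macrophage markers summed to more counts per 1000000 (CPM) in every macrophage library (3011 to 13090 CPM over the 4 tumours) than in any neutrophil library (185.3 to 3051 CPM). T11 macrophages stood apart in the neutrophil marker sum, at 1700 to 4438 CPM against 254.8 to 355.2 CPM in the other macrophages. That sum was carried by the metalloprotease Mmp9, while the neutrophil gene S100a8 was at 0.725 CPM on average in the T11 macrophages. Their macrophage markers were mixed. The receptor Csf1r averaged 1720 CPM, the highest of the 4 macrophage groups. Emr1 (115 CPM) and C1qa (348 CPM) were the lowest, against 167 to 236 and 535 to 1590 CPM in the others. The macrophage marker sum was 3489 to 4529 CPM in T11 macrophages, 3011 to 5081 in E0771, 7336 to 13090 in 2208L and 9658 to 11260 in AT3. T11 neutrophils had the lowest neutrophil marker sums of the neutrophil groups, 639.6 to 1960 CPM. The 8 epithelial markers summed to 2242 to 5393 CPM in 2208L, 4T1 and PyMT-N and to 18.6 to 157.3 CPM in the other 5 lines. The column headers of the table mark 2208L, 4T1, AT3 and PyMT-N with Epi and the other 4 lines with Mes; AT3, marked Epi, had 67.0 to 69.5 CPM of the epithelial markers and 1366 to 1607 CPM of 6 mesenchymal markers, the highest mesenchymal sum of the 8 lines. The 13 mitochondrially encoded chain genes were not analysed here.

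The 85 genes lie on 19 chromosomes, 82 on autosomes and 3 on X, and 24 of them overlap another gene of the table, 21 of these on the opposite strand (Cox4i1 with Emc8, Atp5a1 with Haus1, Ndufa2 with Tmco6, Uqcrc2 with Pdzd9, Cox6c with Vps13b, for example). Whether counting used strand is not given in the sources used here, so reads of such partners cannot be told apart; the same holds for reads shared with processed pseudogenes. Promoter windows of 300 bases around the annotated start, from RefSeq on GRCm38.p6, were at hand for 67 of the 85. The half-site CATGCGC of the factor NRF1 was found on either strand in 13 of these genes (19.4%), against 4.4% of the 27025 genes with a window. The ETS-family core CCGGAAG, which GABPA can bind, was found in 16 (23.9%) against 9.9%, and the YY1 core ATGGCGG in 10 (14.9%) against 4.7%. At least 1 of the 3 was found in 32 of the 67 (47.8%) against 16.8% of all genes, and none of the 3 motifs contains another. The YY1 core was found in 8 of 32 genes of complex I, 2 of 13 of complex V and 0 of those of complexes II, III and IV. These are matches of letters, and no binding was measured.

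The windows of 6 genes that hold a motif and are named in the results below are printed. These are Sdhb, Cox6b1, Ndufb8 and Atp5b for the sorted cells, Sdhd for the lines against sorted cells, and Uqcrc1 for the sorted cells and for 4T1 against 67NR. Other genes named below are not printed. Among them, the windows of Cox5a and Atp5g3 hold none of the 3 motifs, and Ndufa5 has a YY1 core in only 1 of its windows. The 6 thus do not stand for all 67 genes. Capitals mark the motif matches, which are written as their reverse complement where they lie on the other strand. Sdhb (chr4:140961021-140961320, + strand) holds an NRF1 half-site and an ETS core, and Cox6b1 (chr7:30626065-30626364, - strand) and Sdhd (chr9:50603800-50604099, - strand) each hold an ETS core. Uqcrc1 (chr9:108936398-108936697, + strand) holds NRF1 half-sites on both strands that overlap as a palindrome, and Ndufb8 (chr19:44555393-44555692, - strand) holds a single half-site. Atp5b (chr10:128083057-128083356, + strand) holds a YY1 core. All are written 5′ to 3′ on the gene's strand.
Sdhb: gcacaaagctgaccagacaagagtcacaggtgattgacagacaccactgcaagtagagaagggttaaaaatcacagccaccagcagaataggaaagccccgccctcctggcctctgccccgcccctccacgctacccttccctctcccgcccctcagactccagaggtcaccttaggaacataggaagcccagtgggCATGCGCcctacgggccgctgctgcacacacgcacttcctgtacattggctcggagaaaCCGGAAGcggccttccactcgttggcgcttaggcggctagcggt
Cox6b1: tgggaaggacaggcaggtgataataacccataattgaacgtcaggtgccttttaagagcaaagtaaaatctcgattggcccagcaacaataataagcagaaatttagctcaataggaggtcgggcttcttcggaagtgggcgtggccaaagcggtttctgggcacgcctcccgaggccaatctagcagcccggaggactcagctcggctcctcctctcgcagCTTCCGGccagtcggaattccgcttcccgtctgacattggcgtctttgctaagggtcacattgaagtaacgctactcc
Sdhd: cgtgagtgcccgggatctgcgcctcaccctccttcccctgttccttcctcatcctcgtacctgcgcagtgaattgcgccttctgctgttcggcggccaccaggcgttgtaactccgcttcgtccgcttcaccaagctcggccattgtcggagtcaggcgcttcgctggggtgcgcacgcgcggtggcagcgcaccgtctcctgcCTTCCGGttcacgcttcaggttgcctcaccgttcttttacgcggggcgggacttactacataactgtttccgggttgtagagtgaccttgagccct
Uqcrc1: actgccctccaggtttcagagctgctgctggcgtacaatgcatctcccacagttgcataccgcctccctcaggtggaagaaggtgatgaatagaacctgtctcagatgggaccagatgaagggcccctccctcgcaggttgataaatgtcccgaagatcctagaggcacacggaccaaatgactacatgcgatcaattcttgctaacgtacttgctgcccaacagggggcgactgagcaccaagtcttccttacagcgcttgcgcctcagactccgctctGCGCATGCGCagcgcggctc
Atp5b: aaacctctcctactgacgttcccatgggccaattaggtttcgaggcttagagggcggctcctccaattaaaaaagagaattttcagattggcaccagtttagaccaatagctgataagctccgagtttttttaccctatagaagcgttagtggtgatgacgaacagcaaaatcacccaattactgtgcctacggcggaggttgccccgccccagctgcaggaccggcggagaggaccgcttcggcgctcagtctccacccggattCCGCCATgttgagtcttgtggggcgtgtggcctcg
Ndufb8: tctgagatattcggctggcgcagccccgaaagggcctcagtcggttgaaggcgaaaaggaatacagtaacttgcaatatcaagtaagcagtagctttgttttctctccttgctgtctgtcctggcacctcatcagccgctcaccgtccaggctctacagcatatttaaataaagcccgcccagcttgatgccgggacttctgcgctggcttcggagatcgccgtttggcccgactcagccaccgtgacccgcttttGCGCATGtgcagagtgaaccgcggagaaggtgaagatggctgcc

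In the cultured lines the genes took 0.744% ± 0.0699 (SD, n = 24) of the counts outside Rn45s, with group means from 0.614% in 2208L to 0.834% in T11. Macrophages averaged 0.617% ± 0.269 (SD, n = 12), but the 3 T11 macrophage libraries (0.890%, 1.09% and 1.17%) lay above every other library of any kind, while the other macrophage groups averaged 0.488% (2208L), 0.480% (AT3) and 0.452% (E0771). With the gene Lars2 and the odorant and vomeronasal receptor genes also left out of the total, T11 macrophage 3 took 0.897%. That was below the 3 T11 line libraries (0.964%, 1.02% and 0.949%), while T11 macrophages 1 and 2 (1.18% and 1.09%) stayed above all other libraries. Neutrophils averaged 0.287% ± 0.0758 (SD, n = 12), with the lowest group mean in T11 (0.196%), then E0771 (0.242%), 2208L (0.352%) and AT3 (0.361%). T11 tumours thus held both the macrophages with the highest share and the neutrophils with the lowest. The 4 complex II genes, which encode succinate dehydrogenase, took 0.108% of the counts in T11 macrophages and 0.0566% in the lines. In bulk samples, fewer cells of a type and less RNA per cell cannot be told apart.

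**Figure D1:**
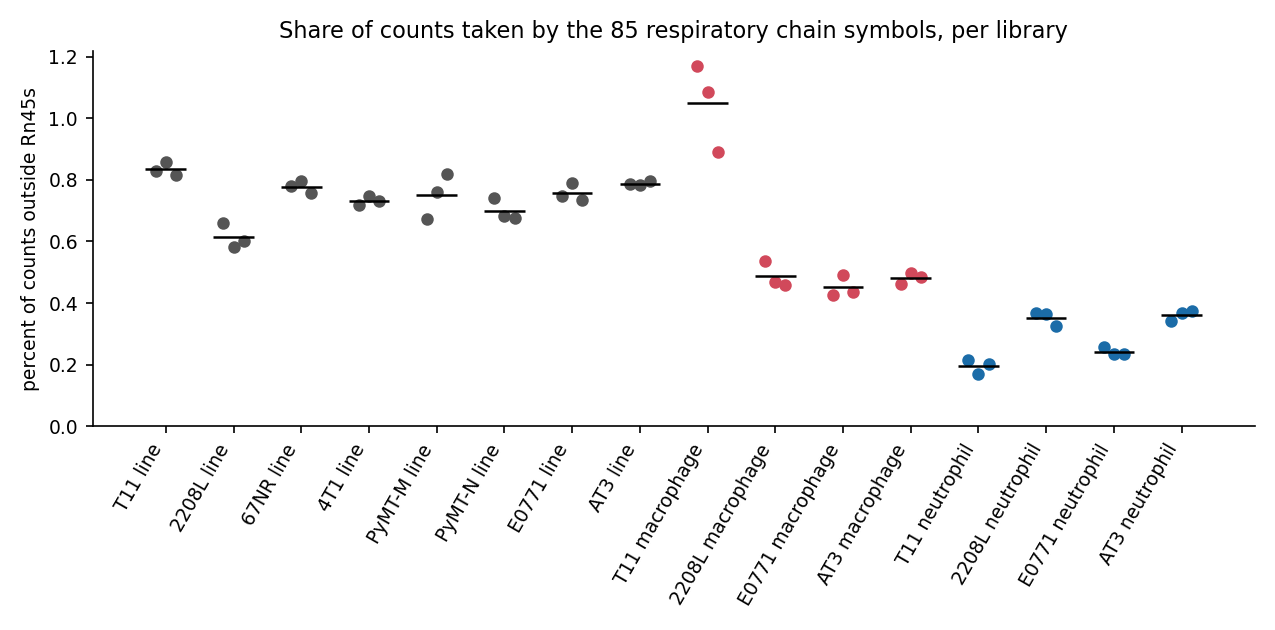
Percent of the counts outside Rn45s that fell on the 85 respiratory chain genes, one point per library and a line at the mean of the 3 libraries of each of the 16 groups. On this measure the T11 macrophages are above all other libraries and the T11 neutrophils have the lowest group mean. With Lars2 and receptor genes also left out of the total, T11 macrophage 3 (0.897%) is below the T11 line libraries.

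Per kilobase of exon, the catalytic beta subunit of ATP synthase, Atp5b, had the highest level of the 85 in the lines (329 CPM per kilobase), followed by the alpha subunit Atp5a1 (210) and the complex IV subunit Cox8a (136). The order differed in sorted cells: Cox8a led in macrophages (81.0) and in neutrophils (42.8), where Atp5b ranked 6 (54.6) and 18 (10.2). Lengths were the union of all annotated exons of a gene, 4237 bases for Atp5b and 619 for Cox8a, and the order depends on them. Not divided by length, in the joint fit with the lines, Atp5b was above Cox8a in macrophages (259 against 56.0 CPM) and in neutrophils (45.4 against 27.8 CPM). Sdhd, a membrane anchor of complex II, ranked 7 in the lines (108) but 56 in macrophages (12.1) and 57 in neutrophils (4.00). The median over the 36 complex I genes was 24.8 CPM per kilobase in the lines, 15.2 in macrophages and 5.09 in neutrophils. For complexes II, III, IV and V it was 49.8, 37.4, 25.3 and 36.6 in the lines, 22.8, 31.1, 12 and 18 in macrophages, and 6.65, 7.62, 5.17 and 5.54 in neutrophils. Lines and sorted cells were scaled in separate fits here, so these levels set no order between them; the joint fit is given further on. Isoforms known from muscle, lung, testis or hypoxic cells were near the bottom in the lines: Cox8b (1.90), Cox4i2 (1.66), Cox8c (1.55), Cox7a1 (0.888), Cox6a2 (0.698), Ndufa4l2 (0.582) and Cox6b2 (0.219). Ndufs5, a complex I subunit of the intermembrane side and not such an isoform, had 1 count in the lines and 4 in the sorted cells. These fell in 3 of the 48 libraries, and the gene was singled out after its values were seen. Whether its transcript was absent or its reads were lost in the mapping or counting was not tested.

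The level of odorant and vomeronasal receptor genes, which these cells are not known to express, served as a background per kilobase. The median respiratory chain gene stood 48.6 (4T1) to 197 (PyMT-N) times above it in the lines and 46.8 (E0771) to 207 (T11) times in the macrophages. In neutrophils the median ratio was 20.0 in 2208L, 11.2 in AT3, 9.21 in E0771 and 4.54 in T11. Only 4 of the 85 genes reached 10 times the background in T11 neutrophils, against 63 in 2208L neutrophils. The part of this background in the differences between neutrophil groups was not tested.

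Among the 8 lines, 77 of the 85 genes had enough counts to be tested, and edgeR's quasi-likelihood test with Benjamini-Hochberg adjustment found all 77 of these different between at least 2 lines; the test called 89.1% of all 18348 genes. A gene is called where its adjusted p was below 0.05, here and below. For the 71 of them with a mean of at least 10 CPM, the highest line was 1.34 to 8.60 times above the lowest, with a median of 2.07. PyMT-N was the highest line for 22 of the 77 and PyMT-M for 17, and 4T1 was the lowest for 39. These ranks rest on scaled levels of single genes and do not give the order of the summed shares. The 85 genes took 0.718%, 0.748% and 0.730% of the counts outside Rn45s in 4T1 and 0.739%, 0.684% and 0.675% in PyMT-N, which overlapped.

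Complex I held 5 of the 6 widest ranges. Ndufa5, an accessory subunit of the matrix arm, was at 46.3, 31.3 and 38.9 CPM in the 3 libraries of 2208L and at 3.93, 5.19 and 4.42 CPM in 4T1 (adjusted p = 9.802e-26 over the 8 lines). The next highest line was T11 (15.7, 17.7 and 17.9 CPM), so that 2208L did not overlap any other line. Ndufc2, of the membrane arm, was at 42.3, 32.9 and 33 CPM in PyMT-N and 33, 36.7 and 33.4 CPM in PyMT-M, and at 7.62, 6.87 and 8.78 CPM in 67NR (adjusted p = 1.413e-22). These 2 lines overlapped each other and were apart from 67NR. The ranges of the complex I accessory genes Ndufb2, Ndufc1 and Ndufa3 had adjusted p-values of 7.237e-16, 3.215e-12 and 3.545e-10. In complex III, Uqcrq, a small accessory subunit, ran from 25.6, 25 and 26.2 CPM in 4T1 to 69.8, 70.3 and 78.3 CPM in PyMT-M (adjusted p = 1.892e-15).

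Atp5b, the most abundant of the genes per kilobase, was at 810, 812 and 785 CPM in 2208L, the lowest line, at 1567, 1603 and 1545 CPM in T11, and highest in 67NR with a mean of 1985 CPM. Among complex II genes, Sdhd stayed between 95.4 and 165 CPM in all 24 line libraries. The testis form Cox7b2, singled out after its values were seen, was at 4.61, 3.84 and 3.83 CPM in 67NR and at or below 1.47 CPM in each of the other line libraries.

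Between the 2 PyMT lines, genes were called in both directions, among them the higher Cox5a and Uqcrc2 and the lower Uqcrq in PyMT-N. There 27 of the 77 tested genes were higher and 14 lower, against 24.5% and 20.1% of all genes tested, and the median log2 difference was 0.06 against -0.06 over all genes. By complex, 2 of 4 complex II genes were higher and 0 lower, 5 of 8 complex III genes higher and 1 lower, 7 of 13 complex IV genes higher and 3 lower, 6 of 15 complex V genes higher and 2 lower, and 6 of 35 complex I genes higher and 8 lower. The 7 of complex IV include Cox7b2, which had only 0, 2 and 4 counts in the PyMT-N libraries and 0 in each of PyMT-M. The complexes were not tested against each other, and the summed share of counts on complex IV overlapped, at 0.0915%, 0.0761% and 0.0751% in PyMT-N and 0.0820%, 0.0945% and 0.107% in PyMT-M. Cox5a, a complex IV subunit, was at 138, 119 and 148 CPM in PyMT-N and at 64.9, 52.5 and 67.7 CPM in PyMT-M. Its groups did not overlap, and the log2 difference was 1.14 ± 0.11 (SE; adjusted p = 1.984e-15). The core protein Uqcrc2 of complex III was at 156, 153 and 164 against 87.4, 92.0 and 85.8 CPM, a log2 difference of 0.83 ± 0.09 (SE; adjusted p = 1.216e-12). Ndufs4, of the electron input module of complex I, was higher by 0.72 and Atp5sl by 1.52. Uqcrq went the other way, at 51.1, 41.2 and 30.2 CPM in PyMT-N against 69.8, 70.3 and 78.3 CPM in PyMT-M (-0.82 ± 0.14 SE; adjusted p = 7.156e-07). Without PyMT-N library 3, 9 genes were lower in place of 14. Also lower were Ndufa4 (-0.70), a subunit now placed in complex IV, Ndufb10 of complex I (-0.65) and Atp5g1 (-0.61), a gene for the rotating c subunit of complex V. All 8 epithelial markers were higher in PyMT-N, and their part in these differences was not tested.

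Between 4T1 and 67NR more genes were called lower than higher in 4T1 in every complex. The summed share of counts on complex III went the other way, at 0.0641%, 0.0764% and 0.0675% in 4T1 and 0.0597%, 0.0611% and 0.0582% in 67NR. The summed share of complex V was lower in 4T1, and those of complexes I, II and IV overlapped. Of the 77 genes, 5 were higher and 32 lower, against 23.6% and 24.3% of all genes, with a median log2 difference of -0.36 against 0.11 over all genes. Lower were 15 of 35 genes of complex I, 3 of 4 of complex II, 4 of 8 of complex III, 5 of 13 of complex IV and 5 of 15 of complex V. Ndufa1, a small complex I subunit encoded on X, was at 10.2, 14.9 and 15.6 CPM in 4T1 and at 32.7, 33.6 and 33.1 CPM in 67NR, with no overlap (-1.26 ± 0.18 SE; adjusted p = 8.032e-09). Cox7a2l, known for its place in the supercomplex of complexes III and IV, was at 44.8, 38.9 and 45.7 against 82.2, 92.0 and 89.3 CPM (-1.02 ± 0.11 SE; adjusted p = 7.996e-13). Ndufs4 was at 34.2, 25 and 41.6 against 80.4, 77.0 and 72.2 CPM (-1.18 ± 0.13 SE; adjusted p = 1.874e-12). These 3 pairs of groups were all separate, as they were for Ndufa6 of complex I (-1.12). The exceptions were led by Uqcrc1, the other core protein of complex III, at 242, 266 and 240 CPM in 4T1 and 152, 155 and 147 CPM in 67NR (0.72 ± 0.09 SE; adjusted p = 1.184e-10). Ndufc2 (1.11), Ndufa4 (0.65) and Ndufb9 (0.59) were also higher in 4T1, as was Atp5o of complex V (0.31; named after its value was seen). With scaling factors from genes well above the receptor background, the median of all genes rose by 0.13. Then 12 of the 77 were higher, against 5421 of all 18348 genes.

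Between 2208L and T11, 13 of the 77 genes were higher in 2208L and 17 lower, against 22.7% and 18.7% of all genes, with medians of 0.01 and -0.03. Complex V had 6 of 15 genes lower and 2 higher, and complex I had 6 of 35 lower and 7 higher. Atp5b, with the values given above, was lower by 0.97 ± 0.08 (SE) on the log2 scale (adjusted p = 1.568e-17), and Atp5a1 was lower too (-0.77; adjusted p = 3.551e-13). Atp5g1 was at 35.7, 24.4 and 32.7 CPM in 2208L and 66.3, 72.5 and 70.7 CPM in T11 (-1.15 ± 0.13 SE; adjusted p = 3.026e-12). No library of either line overlapped the other for these ATP synthase genes. Ndufb2 (-1.06) and Ndufa4 (-0.90) were lower as well. Ndufa5 was higher in 2208L by 1.2 ± 0.17 (SE; adjusted p = 4.278e-09), followed by Ndufv3 (0.76) and the membrane anchor Sdhc of complex II (0.75). All 8 epithelial markers were higher in 2208L and 5 of 6 mesenchymal markers lower, and their part was not tested. Without 2208L library 1 the higher genes were 6, and without 2208L library 2 the lower genes were 11.

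Between AT3 and E0771, which also differed in culture medium, 11 of the 77 genes were higher in AT3 and 19 lower, against 20.4% and 25.3% of all genes. The medians were -0.08 for the members and 0.08 for all genes. Under factors from genes above the receptor background the all-gene median rose by 0.20, with 5806 of all 18348 genes higher and 3369 lower. The counts of members became 24 higher and 12 lower, which left no balance of directions independent of the scaling. The higher genes were 7 without AT3 library 3, 6 without E0771 library 1 and 17 without E0771 library 2. Cox6b1, a complex IV subunit facing the intermembrane space, was at 17.4, 20.4 and 22.4 CPM in AT3 and 34.3, 46.2 and 34.5 CPM in E0771 (-0.95 ± 0.13 SE; adjusted p = 5.675e-09). Ndufc1 (-0.94), Uqcrq (-0.90) and Ndufc2 (-0.86) were lower in AT3. Cox8a was at 94.2, 102 and 120 against 60.4, 77.0 and 63.4 CPM, higher by 0.65 ± 0.10 (SE; adjusted p = 1.497e-07). Cox6b1 and Cox8a, both of complex IV, thus separated the lines without overlap, in opposite directions. Ndufa1 (0.66), Cox7a2 (0.56) and Ndufb11 (0.55) were also higher in AT3.

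**Figure D2:**
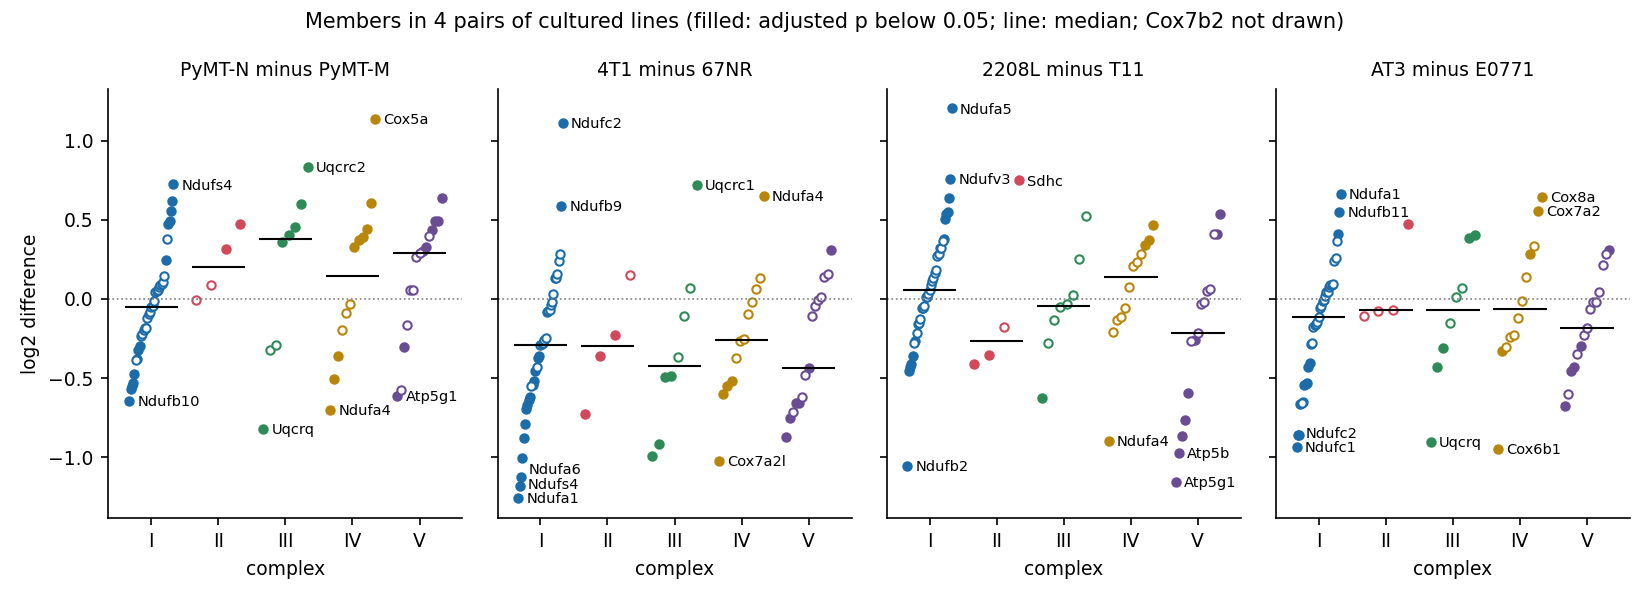
Log2 differences between 4 pairs of cultured lines for the tested respiratory chain genes, by complex. Each point is a gene, filled where the adjusted p was below 0.05, and lines are medians; Cox7b2 is not drawn. In 4T1 against 67NR the median of each complex lies below 0, and in PyMT-N against PyMT-M those of complexes II to V lie above it.

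Other mitochondrial gene lists did not follow a common direction in the lines. Of 17 citric acid cycle genes, 11 were higher and 5 lower in PyMT-N, 6 and 5 in 4T1, 4 and 8 in 2208L, and 3 and 6 in AT3. Of 77 mitochondrial ribosomal protein genes, 6 were higher and 29 lower in PyMT-N, 16 and 14 in 4T1, 15 and 22 in 2208L, and 11 and 35 in AT3. Of 40 tested assembly factors, 3 were higher and 16 lower in PyMT-N, 7 and 10 in 4T1, 9 and 6 in 2208L, and 4 and 20 in AT3.

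In the sorted cells, macrophages had higher levels than neutrophils of nearly every respiratory chain gene tested. Averaged over the 4 tumours, 74 of the 80 genes that could be tested were higher in macrophages and 1 lower, against 28.2% and 48.2% of all 20364 genes, and the median log2 difference was 1.60 against -0.63 over all genes. Higher were 34 of 35 genes of complex I, all 4 of complex II, all 8 of complex III, 12 of 16 of complex IV and all 15 of complex V. The largest differences at 10 CPM or more were those of Atp5b (2.37 ± 0.17 SE; adjusted p = 3.195e-17), Uqcrc1 (2.35 ± 0.15 SE; adjusted p = 1.469e-18), the iron-sulfur subunit Sdhb of complex II (2.173 ± 0.17 SE; adjusted p = 7.727e-16) and Atp5a1 (2.15 ± 0.15 SE; adjusted p = 5.051e-17). The lower gene was Cox4i2, the isoform of Cox4i1 known from lung and hypoxic cells, at -1.05 (adjusted p = 0.02138), a call that was lost or joined by a second gene when any of 12 single libraries was left out. With factors from genes above the receptor background the all-gene median fell by 1.02 and the members' median was 0.58, since such factors move all genes alike. Receptor genes were lower in macrophages in 717 of 821 cases tested, and their part in the difference was not tested.

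The size of the difference depended on the tumour, with T11 far ahead. The test of equal differences in the 4 tumours called 66 of the 80 genes, against 26.8% of all genes. Within T11, 74 of the 80 were higher in macrophages and 1 lower (27.4% and 39.8% of all genes), with a median of 3.24 against -0.94 over all genes. Within E0771, 53 were higher (11.7% of all genes; median 1.36), within AT3 51 (19.3%; median 1.0) and within 2208L 14 (4.74%; median 0.65). In E0771, AT3 and 2208L 0 of the genes were lower (5.76%, 31.4% and 3.28% of all genes), by edgeR, by unadjusted p below 0.05 and by DESeq2 alike. Without the T11 libraries the test of equal differences called 0 of the 74 genes then tested, with 18 at an unadjusted p below 0.05. The smallest adjusted p was 0.08583. Over all genes that test called 687 without the T11 libraries and 5462 with them, so the fall was not limited to the chain genes. DESeq2 with all tumours called 60 of the 80. Using factors from genes above the receptor background, 4 genes were higher within 2208L, 18 within E0771, and within AT3 7 higher and 4 lower. Over all 20364 genes the same factors called 466 higher within 2208L, 689 within E0771, and within AT3 986 higher and 11741 lower. The count within 2208L was 4 without macrophage 1, 7 without neutrophil 1 and 5 without neutrophil 3.

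Sdhb was at 237, 246 and 135 CPM in T11 macrophages and 8.80, 4.40 and 11.4 CPM in T11 neutrophils. In 2208L the same gene was at 59.6, 44.1 and 38.1 CPM in macrophages and 30.1, 43.5 and 20.9 CPM in neutrophils, which overlapped. In AT3 it was at 70.0, 78.7 and 73.5 against 8.82, 21.8 and 20.8 CPM, and in E0771 at 24.3, 30.9 and 38.3 against 10.3, 14.7 and 11.7 CPM, without overlap. The log2 differences were 4.65 (T11), 2.12 (AT3), 1.35 (E0771) and 0.58 (2208L; adjusted p = 0.2667), and they were unequal with an adjusted p of 4.814e-08. The call in E0771 was lost with factors from genes above the receptor background (0.52; adjusted p = 0.16). Atp5b was at 467, 586 and 449 CPM in T11 macrophages and 19.2, 7.92 and 20.4 CPM in T11 neutrophils. In 2208L it was at 190, 161 and 133 against 58.7, 83.2 and 68.8 CPM. Its groups were separate in all 4 tumours, with differences of 4.98 (T11), 1.71 (E0771), 1.57 (AT3) and 1.2 (2208L; adjusted p = 0.01062). The call in 2208L was lost without macrophage 1 (adjusted p = 0.07115), neutrophil 1 (0.08592) or neutrophil 3 (0.05897).

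The complex IV gene Cox4i1 was at 250, 213 and 176 CPM in T11 macrophages and 12.4, 6.60 and 9.03 CPM in T11 neutrophils, a difference of 4.5, against 1.79 in E0771, 1.11 in AT3 and 0.89 in 2208L (adjusted p = 0.05139). Cox4i2 ran against it in T11, with 0.373, 0.306 and 0 CPM in macrophages and 2.00, 3.52 and 5.23 CPM in neutrophils (-3.62; adjusted p = 0.001185). Ndufb8, of the complex I membrane arm, was at 109, 104 and 72.3 CPM in T11 macrophages against 4.80, 6.60 and 2.85 CPM in T11 neutrophils. Its differences were 4.30 in T11, 1.84 in E0771, 1.73 in AT3 and 0.45 in 2208L. Cox6b1 differed by 4.09 in T11, 1.15 in AT3, 0.87 in E0771 (adjusted p = 0.05552) and 0.46 in 2208L. Atp5g3, another gene for subunit c, differed by 3.91 in T11, 1.88 in E0771, 0.77 in 2208L and 0.28 in AT3. In AT3, factors from genes above the receptor background ended the calls of Cox4i1 (0.11; adjusted p = 0.6703), Cox6b1 (0.10; adjusted p = 0.7669) and Ndufb8 (0.67; adjusted p = 0.05304), and Atp5g3 turned to -0.74 (adjusted p = 0.0252).

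**Figure D3:**
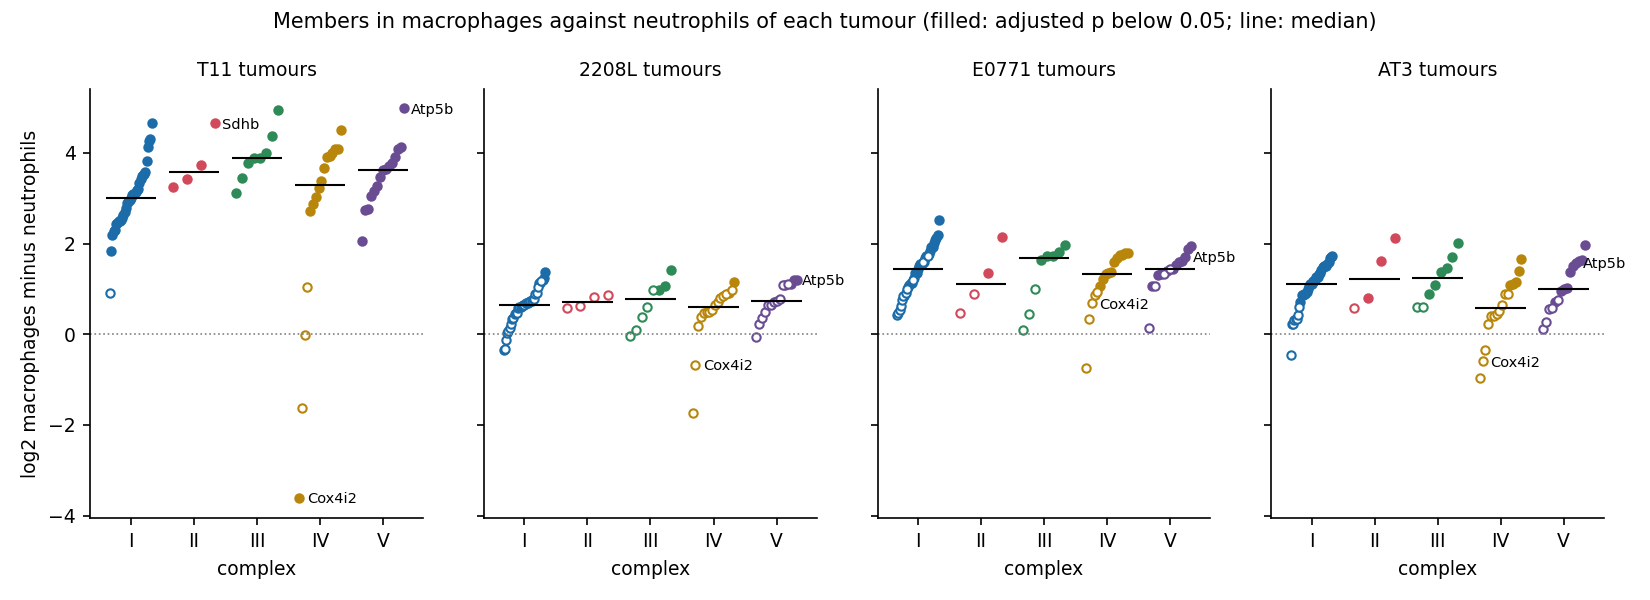
Log2 difference between macrophages and neutrophils of the same tumour for each tested respiratory chain gene, by complex, in T11, 2208L, E0771 and AT3. Filled points had an adjusted p below 0.05, and lines are medians. Nearly all T11 points lie above 2, while those of 2208L centre at 0.65.

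Other mitochondrial genes were also higher in macrophages. Of 17 citric acid cycle genes 16 were higher and 0 lower, of 9 chain genes outside the symbol rule (cytochrome c, the electron transfer flavoprotein genes and others) 6 higher and 0 lower, and of 77 mitochondrial ribosomal protein genes 59 higher and 0 lower. Of 39 assembly factors 17 were higher and 3 lower, and of 13 regulators of chain genes 6 higher and 1 lower. Cytosolic ribosomal protein genes moved with them, 74 of 77 higher and 3 lower.

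Among macrophages, the T11 group had the highest levels of most of the genes. The test over the 4 tumours called 51 of 77 genes, against 36.4% of all genes, and 10 of 75 without the T11 libraries. Over all genes it called 5350, and 2641 without the T11 libraries. All 3 T11 libraries were above the other 9 macrophage libraries for 43 of the 77 genes (8.76% of all genes) and below them for 0 (3.57%), and all 3 E0771 libraries were below the other 9 for 8 (5.16%). The 6 widest ranges were those of Uqcrc2, the Rieske iron-sulfur protein Uqcrfs1, the flavoprotein Sdha, Sdhb, the complex I core subunit Ndufv1 and Atp5b. Each had its highest mean in T11 and its lowest in E0771. Uqcrc2 was at 175, 187 and 99.6 CPM in T11, 66.5, 45.2 and 25.6 in 2208L, 51.2, 61.9 and 44.9 in AT3 and 6.72, 18.8 and 20.9 in E0771 (adjusted p = 2.561e-08). Sdha was at 164, 224 and 117 CPM in T11 and at 18.6, 28.7 and 20.9 CPM in E0771 (adjusted p = 5.023e-08). The range of Uqcrfs1 lost its call without T11 (adjusted p = 0.1432), as did that of Ndufv1 (0.1683).

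Between 2208L and T11 macrophages, 0 of the 77 genes were higher in 2208L and 50 lower, against 7.16% and 9.34% of all genes; 1 was higher at an unadjusted p below 0.05 and 1 by DESeq2. The median log2 difference was -1.22 against -0.01 over all genes. Lower were all 4 genes of complex II, all 8 of complex III, 10 of 15 of complex V, 9 of 13 of complex IV and 18 of 35 of complex I. Sdhb, with the values given above, was lower by 2.12 ± 0.27 (SE; adjusted p = 4.77e-07), a change called also for Sdha (-1.42) and for both other subunits. Uqcrfs1 was at 46.6, 63.4 and 37.0 CPM in T11 and 15.7, 9.26 and 11.0 CPM in 2208L (-2.03 ± 0.40 SE; adjusted p = 0.000341). Uqcr10, a small complex III subunit, was at 47.0, 46.9 and 32.2 against 14.2, 8.19 and 13.6 CPM (-1.82 ± 0.34 SE; adjusted p = 0.0001889). Atp5g3 was at 110, 79.0 and 68.8 against 31.7, 21.7 and 19.3 CPM (-1.82 ± 0.30 SE; adjusted p = 2.989e-05), and none of these 4 genes overlapped between the tumours. Leaving out T11 macrophage 1 lowered the count from 50 to 33. Of 17 citric acid cycle genes 14 were lower and 0 higher in 2208L (median -1.64), of 36 assembly factors 9 lower and 0 higher, and of 76 mitochondrial ribosomal protein genes 10 lower and 0 higher. Macrophage markers went the other way, 8 of 10 higher and 2 lower in 2208L, and 7 of 7 tested epithelial markers were higher there; their part was not tested.

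Between AT3 and E0771 macrophages, 13 of the 77 genes were higher in AT3 and 0 lower, against 10.8% and 8.3% of all genes; 0 were lower at an unadjusted p below 0.05 or by DESeq2. Complex II contributed 2 of 4, complex III 2 of 8, complex IV 3 of 13, complex V 3 of 15 and complex I 3 of 35. Uqcrc2 was higher by 1.75 ± 0.35 (SE; adjusted p = 0.0007859), Sdha by 1.70 ± 0.31 (SE; adjusted p = 0.0002313) and Sdhb by 1.24 ± 0.28 (SE; adjusted p = 0.002226). Uqcrfs1 was at 7.04, 27.2 and 11.0 CPM in AT3 and 3.62, 6.08 and 7.58 CPM in E0771, groups that overlapped (1.37 ± 0.45 SE; adjusted p = 0.03084). That call was lost without AT3 macrophage 2 (adjusted p = 0.3775), E0771 macrophage 1 (0.09687) or E0771 macrophage 2 (0.05594), by DESeq2 (0.05308) and with factors from genes above the receptor background (0.1568). Without E0771 macrophage 3, 20 genes were higher. Only 3 genes were higher with factors from genes above the receptor background, and the all-gene median fell by 0.49. Of all 14715 genes, 467 were then higher. Macrophage markers were higher in AT3 for 6 of 10 genes, and their part was not tested.

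Among neutrophils, the T11 group was lowest. The test over the 4 tumours called 54 of the 72 genes that could be tested, against 30.8% of all genes. It called 26 of 70 without the T11 libraries and 25 with factors from genes above the receptor background. Over all genes it called 5593 of 18158, 2409 without the T11 libraries and 10663 with those factors. The excess of chain genes over all genes was thus not kept with those factors. All 3 T11 libraries were below the other 9 neutrophil libraries for 26 of the 72 (6.59% of all genes) and above them for 0 (2.56%). Ndufa5 had the widest range: 44.8, 45.2 and 49.3 CPM in 2208L, 2.52, 6.52 and 6.77 in AT3, 6.30, 3.46 and 5.86 in E0771 and 6.40, 0 and 0.951 in T11 (adjusted p = 1.414e-09). The 2208L neutrophils stood apart from the rest, while the other 3 groups overlapped. Ndufa2, another complex I accessory subunit, was at 3.60, 1.32 and 1.90 CPM in T11, 7.20, 5.63 and 6.44 in E0771, 22.6, 22.2 and 20.4 in 2208L and 12.2, 23.9 and 30.9 in AT3 (adjusted p = 1.311e-07). Complex IV supplied the other 4 of the 6 widest ranges, each lowest in T11 and highest in AT3: Cox6c (adjusted p = 2.474e-07), Cox8a (3.644e-06), Cox6a1 (8.554e-06) and Cox6b1 (8.767e-06). Cox6c was at 2.80, 4.84 and 3.80 CPM in T11 and at 23.5, 28.7 and 36.3 CPM in AT3.

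Between 2208L and T11 neutrophils, 54 of the 72 genes were higher in 2208L and 0 lower, against 20.4% and 10.8% of all genes; 0 were lower at an unadjusted p below 0.05 or by DESeq2. The median log2 difference was 1.58 against -0.16 over all genes. Higher were all 8 tested genes of complex III, 13 of 14 of complex V, 11 of 12 of complex IV, 3 of 4 of complex II and 19 of 32 of complex I. Ndufa5 was higher by 4.14 ± 0.46 (SE; adjusted p = 5.79e-08), Ndufa2 by 3.20 ± 0.40 (SE; adjusted p = 6.596e-07), Cox4i1 by 2.4 ± 0.34 (SE; adjusted p = 2.931e-06) and Ndufb8 by 2.36 ± 0.36 (SE; adjusted p = 9.706e-06). With factors from genes above the receptor background the all-gene median fell by 1.19, and 13 genes were higher and 4 lower. Over all 18158 genes those factors called 758 higher and 10941 lower. In the same comparison 72 of 74 cytosolic ribosomal protein genes, 7 of 9 neutrophil markers, 9 of 10 macrophage markers and 7 of 7 epithelial markers were higher in 2208L, and 66 of 344 receptor genes were lower with 0 higher; their part was not tested. Of 17 citric acid cycle genes 9 were higher and 1 lower, and of 67 mitochondrial ribosomal protein genes 16 higher and 0 lower.

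Between AT3 and E0771 neutrophils, 19 of the 72 genes were higher in AT3 and 0 lower, against 2.58% and 1.71% of all genes; 0 were lower at an unadjusted p below 0.05 or by DESeq2. The median log2 difference was 0.81 against 0.06 over all genes, and complex IV contributed 7 of its 12 tested genes. Uqcrh, the acidic hinge protein of complex III, was at 15.5, 34.8 and 42.1 CPM in AT3 and 6.75, 11.2 and 8.20 CPM in E0771 (1.80 ± 0.35 SE; adjusted p = 0.002608). Sdhc was at 26.9, 64.4 and 48.4 against 13.9, 10.8 and 17 CPM (1.75 ± 0.31 SE; adjusted p = 0.001077). For both genes the groups did not overlap, and AT3 neutrophil 1 was the lowest AT3 library. Ndufa2 (1.78) and the epsilon subunit Atp5e of complex V (1.74) were also higher. The count was 12 without AT3 neutrophil 2, 10 without E0771 neutrophil 1 and 11 without E0771 neutrophil 2 or 3, and it was 11 with factors from genes above the receptor background. Those factors called 211 of all 18158 genes higher. Macrophage markers were higher in AT3 for 5 of 10 genes and neutrophil markers for 3 of 9, and their part was not tested.

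**Figure D4:**
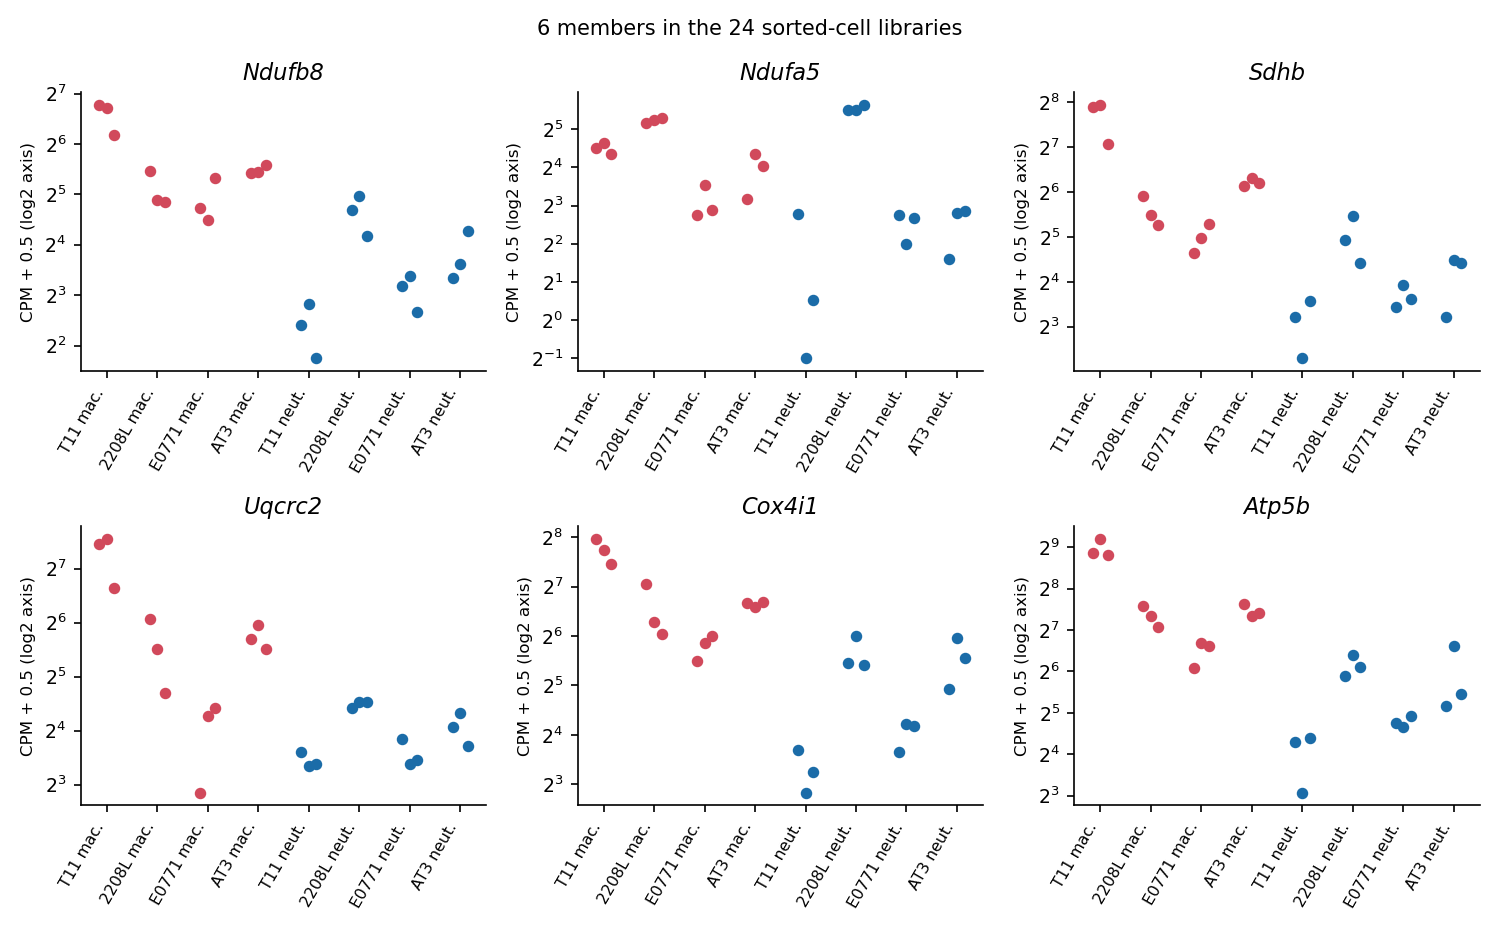
Levels of Ndufb8, Ndufa5, Sdhb, Uqcrc2, Cox4i1 and Atp5b in the 24 sorted libraries, as CPM + 0.5 on a log2 axis, by tumour and cell type. For each of the 6 genes macrophages and neutrophils lie farthest apart in T11, and Ndufa5 is highest in both cell types of 2208L.

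Ndufa5 had its highest mean level in 2208L among the 8 lines, among the macrophages (35.6, 37.4 and 38.6 CPM, against 22.4, 24.2 and 19.8 in T11, 8.45, 20.0 and 15.9 in AT3 and 6.2, 11.1 and 6.83 in E0771) and among the neutrophils. In the macrophages its difference from T11 was not called (0.74; adjusted p = 0.1329), and it was the only 1 of the 77 genes for which all 3 2208L libraries lay above the other 9, against 2.09% of all genes. It also differed between cell types, with macrophages higher than neutrophils by 3.09 in T11 (adjusted p = 5.442e-07) and 1.5 in AT3 (adjusted p = 0.005963), against -0.32 in 2208L (adjusted p = 0.6462) and 0.62 in E0771 (adjusted p = 0.4131). The same sorted 2208L libraries had the highest epithelial marker sums of the sorted cells, 171.6 to 237.6 CPM in macrophages and 212.5 to 220.6 CPM in neutrophils, against 8.377 to 88.29 CPM in the other sorted libraries and 4168 to 4485 CPM in the 2208L line. Their part in the level of Ndufa5 was not tested.

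Against macrophages of the same tumour names, the T11, 2208L, E0771 and AT3 lines had higher levels of a set of genes spread over all complexes, but the balance depended on the scaling. Of the 81 genes tested, 42 were higher in the lines and 13 lower, against 40% and 15.5% of all genes, and the median was 0.38 against 0.43 over all genes. With DESeq2 size factors the counts were 26 and 29 and with factors from genes above the receptor background 22 and 36, as the all-gene median fell by 0.42 and 0.61. Of all 21347 genes, 5826 were higher and 5202 lower with the first factors, and 4918 and 6275 with the second. Sdhd averaged 118 ± 5.42, 85.7 ± 7.18, 147 ± 6.88 and 133 ± 15.9 CPM (SD, n = 3) in the T11, 2208L, E0771 and AT3 lines. In the macrophages it averaged 37.0 ± 1.98, 10.7 ± 3.62, 7.19 ± 1.24 and 11.6 ± 2.7 CPM (SD, n = 3) in the same order, well below each line. The difference of Sdhd was 3.13 ± 0.13 (SE; adjusted p = 3.082e-32), ahead of Atp5b (2.35), Uqcrfs1 (2.32) and Ndufa4 (2.19). Sdhb, of the same complex as Sdhd, differed by 0.09 (adjusted p = 0.6018) and Sdhc was lower in the lines (-0.73; adjusted p = 1.146e-06). Ndufv3 averaged 8.61 CPM in the T11 line and 40.0 CPM in T11 macrophages and was lower in the lines by 1.53 ± 0.15 (SE; adjusted p = 1.17e-14), followed by Uqcrb of complex III (-1.26) and Uqcr10 (-0.60). Uqcr10 lost its call without the T11 libraries (-0.20; adjusted p = 0.4033). Culture, RNA kit, sorting and cell type cannot be told apart here.

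Against neutrophils, 74 of the 81 genes were higher in the lines and 5 lower (35.6% and 48.7% of all genes), and the median was 1.98 against -0.57 over all genes. All 4 genes of complex II, all 8 of complex III, all 15 of complex V, 34 of 35 of complex I and 12 of 17 of complex IV were higher, and the 5 lower genes were all complex IV isoforms of restricted tissues: Cox6b2 (-2.47), Cox7b2 (-2.10), Cox7a1 (-1.18), Ndufa4l2 (-1.06) and Cox4i2 (-1.0; named after their values were seen). The lower genes were 3 without neutrophil 1 of 2208L, AT3 or E0771. In neutrophils these 5 genes stood low, at 0.841 (Ndufa4l2 in AT3) to 9.91 (Cox4i2 in 2208L) times the receptor background. Cox6b2 had 0 to 6 counts per neutrophil library. The background itself was 0.388 to 0.703 CPM per kilobase in the neutrophil groups and 0.152 to 0.267 in the lines. Its part in these 5 calls was not tested. Atp5b (4.79 ± 0.16 SE; adjusted p = 7.015e-37), Sdhd (4.58 ± 0.15 SE; adjusted p = 5.633e-38), Ndufa4 (3.98 ± 0.16 SE; adjusted p = 4.519e-33) and Atp5a1 (3.96 ± 0.14 SE; adjusted p = 1.494e-35) led. With factors from genes above the receptor background the all-gene median fell by 1.42 and 14 genes were lower, against 15667 of all 21347 genes. Without the T11 libraries only 78 genes were tested, and 0 of them were lower by edgeR, with 2 at an unadjusted p below 0.05. Both comparisons share the line libraries, and 15 of 17 citric acid cycle genes were higher in the lines against macrophages and 17 of 17 against neutrophils.

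**Figure D5:**
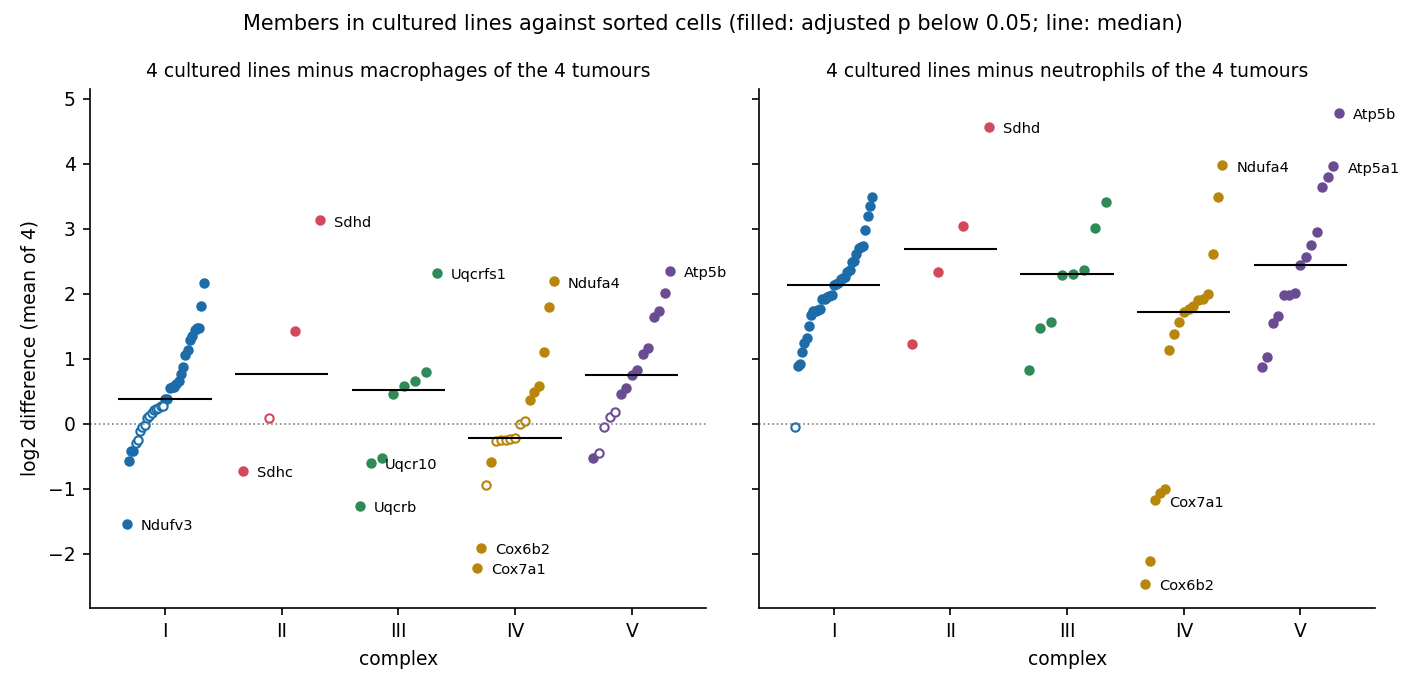
Log2 difference between the cultured lines and the macrophages or neutrophils of the same 4 tumour names for each tested respiratory chain gene, by complex. Filled points had an adjusted p below 0.05, and lines are medians. The points against macrophages spread on both sides of 0, and those against neutrophils lie mostly above it.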

How the data were processed

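The data were raw counts per gene symbol for 48 libraries, deposited by the authors in a single table with no normalization. Per the submitters' processing notes, bcl2fastq 2.17, STAR 2.4.2a and the genome build mm10 were used; the counting program, annotation and strand setting are not given in the sources used here. Differences were tested with edgeR 4.0.16 (R 4.3.3), as a quasi-likelihood test with TMM factors; genes entered a fit by a filter per group with a count minimum of 10 and a total of 15. P-values were adjusted by Benjamini-Hochberg across every gene of a fit, and a gene was called below 0.05. Separate fits covered the 24 line libraries, the 24 sorted libraries, the 12 macrophage and the 12 neutrophil libraries, and the 36 libraries of T11, 2208L, E0771 and AT3. Levels are CPM on TMM-scaled totals of each fit. Gene models came from GENCODE M21, matched by symbol for 22750 symbols and by Entrez identifier for 533, with 771 unmatched. The self-test on simulated counts recovered 89 of 100 genes changed 2-fold between PyMT-N and PyMT-M among 18348 genes, and 20 of 100 between 2208L and T11 macrophages among 14715.

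Genes were named by rule: in a comparison of 2 groups the 4 higher and 4 lower called genes with the largest log2 difference at a mean of at least 10 CPM, in a test over several groups the 6 with the widest range, in the test of unequal differences the 6 smallest adjusted p-values, plus tissue isoform sets and 10 core subunits. Of the genes that this rule names, 1 is not reported here. The members and the gene lists were chosen with earlier results of these data known. Alternatives were DESeq2 1.42.0, its size factors, TMM factors from genes at least 10 times above the receptor genes per base, Rn45s and Lars2 left out, no filter, a replicate block, each library left out and, chosen after seeing the data, the T11 libraries left out. Replicates differed by more than counting noise in all 48 pairs (chi-square per degree of freedom 1.31 to 19).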

Additional observations from a re-analysis of the deposited data

Results flagged for a closer look

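The difference between macrophages and neutrophils was unequal between the 4 tumours for 66 of the 80 respiratory chain genes tested, by edgeR's quasi-likelihood test of the interaction. It was unequal for Sdhb with an adjusted p of 4.814e-08, for Atp5b with 5.253e-08, for Cox4i1 with 5.425e-08, for Atp5g3 with 1.509e-07, for Cox6b1 with 2.663e-07 and for Ndufb8 with 2.876e-07. In each of these 6 genes the T11 difference was the largest of the 4, between 3.91 (Atp5g3) and 4.98 (Atp5b) on the log2 scale. Without the T11 libraries the adjusted p-values were 0.104, 0.7399, 0.3595, 0.0935, 0.6403 and 0.1123 in the same order. Over all genes the same test called 687 without the T11 libraries and 5462 with them. T11 macrophages had the highest share of counts on these genes and T11 neutrophils, with the lowest ratio to the receptor background, the lowest share; the part of that background was not tested.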

How the results depend on the processing

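Depth limits the neutrophils most, with a median of 1865.5 counts on the respiratory chain genes per library against 6020 in macrophages. Counts of called genes are given here where an alternative moved them by more than 1.5 times, and the cause was not tested. With factors from genes above the receptor background, 12 genes were higher in 4T1 than 67NR, 24 higher and 12 lower in AT3 than E0771, 4 lower in macrophages than neutrophils, 42 unequal by tumour, and within tumours 3 lower in T11, 4 higher in 2208L, 18 higher in E0771 and 7 higher and 4 lower in AT3. Among macrophages 1 was higher in 2208L than T11 and 3 in AT3 than E0771. Among neutrophils 25 differed over the tumours, 13 were higher and 4 lower in 2208L than T11 and 11 higher in AT3 than E0771. In the lines 22 were higher and 36 lower than in macrophages, and 14 lower than in neutrophils. Over all genes the same factors called 15412 lower in macrophages than neutrophils, 7828 unequal by tumour and 15007 lower within T11. They called 1526 of all genes higher in 2208L than T11 macrophages. Of 112 named values under this setting, 106 kept direction and call, 5 lost the call (Sdhb within E0771, Cox4i1, Cox6b1 and Ndufb8 within AT3, and Uqcrfs1 in AT3 against E0771 macrophages) and Atp5g3 in AT3 reversed to -0.74.

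With DESeq2 size factors, and with DESeq2, 26 genes were higher and 29 lower in the lines than in macrophages, 2 lower in macrophages than neutrophils and 2 within T11; DESeq2 called 1 higher in 2208L than T11 macrophages. With Rn45s and Lars2 left out, 0 were lower in macrophages, 0 within T11 and 2 lower in the lines than in neutrophils; with no filter 3 were lower in macrophages. Without the T11 libraries, 0 were lower in macrophages, 0 unequal by tumour, 10 differed among macrophages and 26 among neutrophils, and 7 and 0 were lower in the lines than in macrophages and neutrophils. In that setting 74 genes were tested between macrophages and neutrophils, 75 among macrophages, 70 among neutrophils and 78 in the lines against sorted cells. Leaving Lars2 and the receptor genes out of the total raised the share in the lines to 0.875%.

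The column headers give macrophages and neutrophils of a tumour the same numbers, and the labels do not say whether a number marks 1 animal, so a shared animal was not tested. Over genes the correlations of same-numbered libraries' deviations ran from -0.102 to 0.25 in the sorted cells, with a median of 0.0148, and from -0.175 to 0.241 in the lines, not above 0.1 in every pair, so the fits without the block were kept. With the replicate block 0 genes were lower in macrophages than neutrophils, and Uqcrfs1 in AT3 against E0771 macrophages became 1.26 (adjusted p = 0.05142); the other 111 of 112 named values kept direction and call.

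Leaving out each library gave 76 to 77 genes over the lines. Higher and lower genes ran from 20 to 28 and 9 to 17 in PyMT-N, 4 to 5 and 26 to 31 in 4T1, 6 to 19 and 11 to 18 in 2208L, and 6 to 17 and 14 to 25 in AT3. Macrophages had 73 to 75 higher and 0 to 2 lower than neutrophils, with 59 to 69 unequal by tumour. Higher genes within tumours were 73 to 74 (T11, with 1 to 2 lower), 4 to 17 (2208L), 46 to 56 (E0771) and 37 to 54 (AT3). Among macrophages 38 to 58 differed, 33 to 56 were lower in 2208L and 9 to 20 higher in AT3. Among neutrophils 49 to 59 differed, 49 to 54 were higher in 2208L and 10 to 28 in AT3. Lines against macrophages gave 40 to 45 higher and 10 to 14 lower, and against neutrophils 74 higher and 3 to 5 lower.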
